A study of Mus musculus with 8 samples.

Results

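The genes described here are 8 ADAMTS proteinases, secreted metalloproteinases of the cartilage matrix: 5 that cut aggrecan or versican (Adamts1, Adamts4, Adamts5, Adamts9 and Adamts15) and 3 that trim fibrillar procollagens (Adamts2, Adamts3 and Adamts14). They were chosen by name and published role, with earlier results of these data known. They are 8 of the 52325 gene identifiers in the expression files. The gene lists set beside them were also chosen with earlier results known, so counts of called genes describe these lists and do not test them. RNA-seq had been made from costal chondrocytes of 7-day-old mice on the C57BL/6J background, with 4 wild-type control libraries and 4 from mice lacking Mir140, the gene of the cartilage microRNA miR-140. The null allele was made with CRISPR/Cas9 in zygotes of mixed C57BL/6 and CBA/ca background. After backcrossing, heterozygous animals were crossed to give the wild-type and null lines, so line and genotype cannot be told apart. All cells were freed from rib cartilage with collagenase. No label says whether a library came from 1 animal, so p-values measure the spread between these libraries. The comparison asks whether the RNA of these proteinases differed when miR-140 was absent.

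Cartilage matrix is a fibril network of type II collagen filled with aggrecan, a proteoglycan that holds water. Aggrecanases cut the aggrecan core protein between its globular domains, and Adamts4 and Adamts5 are the members best known for this in osteoarthritis. Procollagen N-proteinases remove the amino-terminal propeptide from newly secreted procollagen, a step that precedes fibril assembly. A microRNA lowers its targets by pairing its seed, bases 2 to 8, with the 3′ untranslated region (UTR) of the messenger RNA, and Adamts5 has been described as a target of miR-140.

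miR-140 has a 5p and a 3p arm, and the 3p arm occurs with 2 different starts, which shifts the seed by 1 base. The 3p arm is shown because its letters could be searched for in the members' UTRs. Matches to the 5p arm were not looked for. The matches below therefore do not bear on which arm the published description of Adamts5 as a target concerns. It lies at chr8:107551288-107551308 on the plus strand (GRCm38.p6, from RefSeq), inside Wwp2. The annotated form comes first and the form that starts 1 base later second, and capitals mark the seed of each.
miR-140-3p.2: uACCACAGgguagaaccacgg
miR-140-3p.1: aCCACAGGguagaaccacgg

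On the transcript strand, an 8-base match is CTGTGGTA for miR-140-3p.2 and CCTGTGGA for miR-140-3p.1, and a 7-base match lacks either the last or the first of these letters. A run of CCTGTGG followed by T holds a match to both forms. At least 1 match was found for 7 of the 8 members, in the longest annotated 3′ UTR among their coding transcripts with a complete end. The exception was Adamts3, whose longest such UTR was 702 bases long. It came from a transcript of 1833 bases, whereas the longest Adamts3 transcript has 3937. Adamts5 and Adamts2 held an 8-base match. In Adamts5 it was for miR-140-3p.1, at chr16:85859846-85859872 on the minus strand (mm10). In Adamts2 there were 2 for miR-140-3p.2, at chr11:50805156-50805182 and chr11:50806704-50806730 on the plus strand. The sites are shown because these are the members' longest matches, with the matched letters in capitals.
Adamts5 site: acatctattgccttCCTGTGGAaacag
Adamts2 first site: gcccctacccatggCTGTGGTAgaaga
Adamts2 second site: cttcttgtttgagtCTGTGGTAgaatg

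CCTGTGGA occurs in 5.77% and CTGTGGTA in 3.84% of the 3′ UTRs of 12981 tested genes. The runs of 7 letters that match occur, each by itself, in 11.8% to 20.2% of them. The share with at least 1 match of any kind was not counted, so 7 of 8 cannot be called particular to the members. The Adamts5 UTR is 6437 bases long, longer than those of 98.2% of these genes. Among UTRs of 0.8 to 1.2 times its length, 15.9% held CCTGTGGA, and 7.8% of those of like length to the Adamts2 UTR held CTGTGGTA. Adamts5 held another 4 matches of 7 bases, of which 2 overlap. Adamts4, Adamts5, Adamts9 and Adamts14 each had 1 place where both forms of the 3p arm match. Such a match describes letters and is not evidence that the site is used.

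Expression was deposited as transcripts per 1000000 (TPM), a level per transcript length with the same sum in each library, so levels of different genes can be set side by side. TPM keeps no read counts and the depth behind a value is unknown. The number of genes at 0.5 TPM or more was 17128 to 17950 across the wild-type libraries. It was 15800 and 16056 for replicates 1 and 2 of the Mir140-null group, and 17435 and 16991 for replicates 3 and 4. Mitochondrial genes took 4.06% to 6.99% of TPM in wild-type and 8.41% to 10.1% in Mir140-null libraries. Mir140 itself could not check the labels. It was listed at 0 in all libraries other than Mir140-null replicate 2, which listed 8.86 TPM. Its host gene Wwp2 had 380.3 ± 55.8 TPM with Mir140 intact and 340.4 ± 56.5 TPM in its absence (SD, n = 4 each). The 11 chondrocyte markers summed to between 61559 and 76665 TPM in wild-type and between 46593 and 63222 TPM in Mir140-null libraries, far above the marker sums of every other cell type. A list of 12 immediate-early and stress genes, of which 8 were called lower, summed to 8072 to 15533 TPM across wild-type and 4675 to 6650 TPM across null libraries. A list of 9 inflammation genes, of which 5 were called higher, summed to 1099 to 1836 TPM and 1989 to 3716 TPM. Their part in the values below was not tested.

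The levels of the 8 proteinases spanned a wide range in wild-type cells. Adamts1 was the highest at 39.9 ± 2.98 TPM, above 86.3% of tested genes, and Adamts15 the lowest at 0.35 ± 0.27 TPM (SD, n = 4). The order was Adamts1, Adamts3, Adamts2, Adamts4, Adamts9, Adamts5, Adamts14 and Adamts15. Adamts1 stood clear of Adamts3, and Adamts14 of Adamts15, with no overlap of their 4 libraries. The ranges of all other neighbours in this order overlapped, although Adamts4 exceeded Adamts9, Adamts9 exceeded Adamts5 and Adamts5 exceeded Adamts14 within each of the 4 libraries. In Mir140-null cells the order was alike except that Adamts5 came before Adamts9, and these 2 were each the higher in 2 of 4 libraries. Adamts9 there stood clear of Adamts14.

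**Figure D1:**
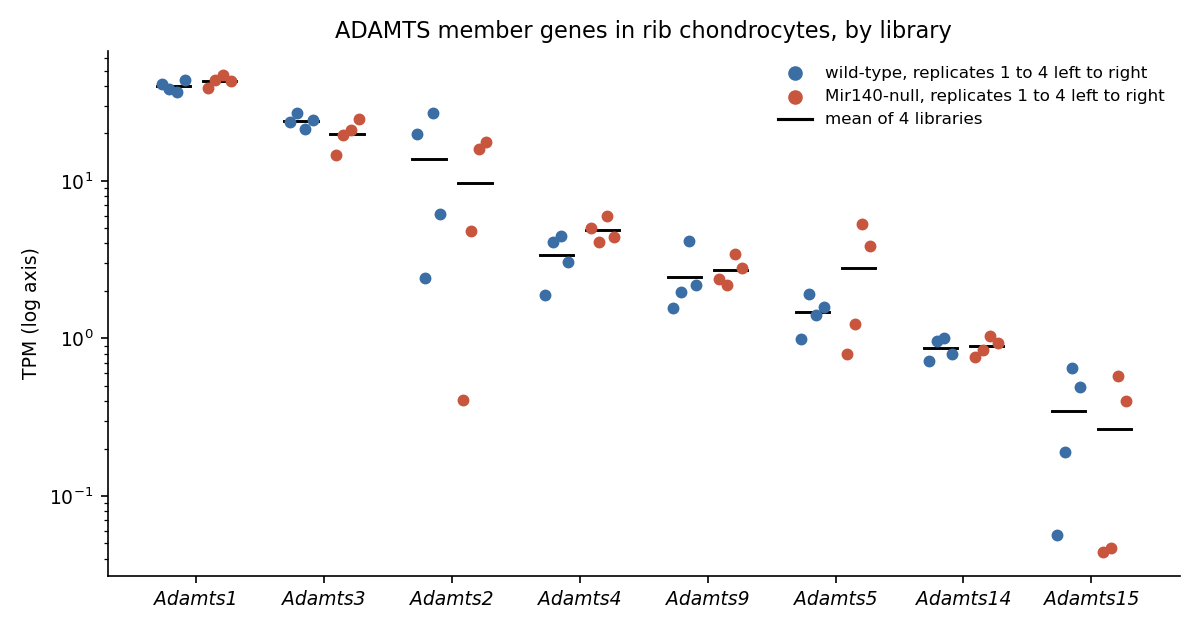
Level of each of the 8 proteinase genes in TPM (vertical log axis) in the 4 wild-type (blue) and 4 Mir140-null (red) libraries, with the mean as a bar. Adamts1 sits between 36.7 and 47.1 TPM in every library, whereas Adamts2 spans from 0.41 to 26.8 TPM.

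Adamts1 made up most of the aggrecanase RNA. Of the summed TPM of the 5 aggrecan- and versican-cutting members it took 77.6% to 90.1% in wild-type and 75.5% to 85.2% in Mir140-null libraries. The sum itself had a mean of 47.5 ± 2.29 TPM in wild-type cells against 53.8 ± 6.52 TPM without Mir140 (SD, n = 4 each), with overlapping ranges. Among the N-proteinases Adamts3, which has been described as the main enzyme for type II procollagen, took 43.4% to 88.8% of the summed TPM in wild-type and 55.3% to 92.5% in Mir140-null libraries. Adamts2 took 8.05% to 54.6% and 2.59% to 41.97%, and in Mir140-null replicate 1 it was below Adamts14. Across the 8 libraries Adamts3 ranged over 1.85-fold and Adamts2 over 66.0-fold.

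Of the 8 members 7 could be tested between genotypes, since Adamts15 lay under 0.5 TPM in too many libraries. With limma on log2(TPM + 1), 0 of 7 passed a Benjamini-Hochberg adjusted p under 0.05, where 16.9% of 17177 tested genes did. No member reached an unadjusted limma p under 0.05 (0 of 7, against 33.9% of tested genes), and by an exact permutation test of the libraries 0 of 8 did. No member had groups that did not overlap (0 of 8, against 25.9% of tested genes). With 4 libraries in each group, the permutation p is under 0.05 only where the groups do not overlap. The permutation count and the overlap count are therefore the same result. The differences, Mir140-null minus wild-type on the log2(TPM + 1) scale, were positive for 5 and negative for 2, with a median of 0.11 beside -0.01 over all tested genes. The median size of the difference, regardless of sign, was 0.28 for the members and 0.32 for all tested genes. A missed threshold does not show equal levels, so the 95% interval is given for each gene below.

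**Figure D2:**
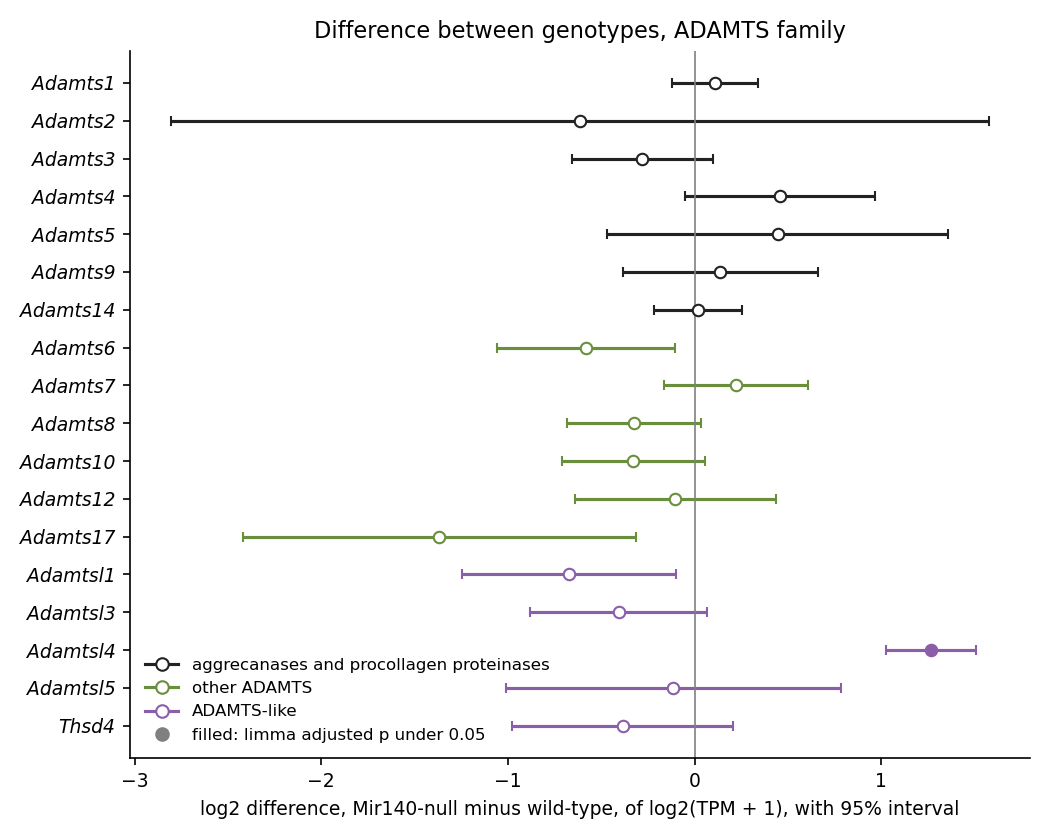
Difference between genotypes in log2(TPM + 1), Mir140-null minus wild-type, for each tested gene of the ADAMTS family, with its limma 95% interval (horizontal axis). Filled points passed an adjusted p of 0.05, which only Adamtsl4 did (1.27). Adamts15 was not tested and is not drawn.

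Adamts1, which cuts aggrecan and versican and is induced early in inflammation, had 41.0, 38.3, 36.7 and 43.4 TPM in wild-type replicates 1 to 4. In Mir140-null replicates 1 to 4 it had 38.9, 43.3, 47.1 and 43.1 TPM. Of the 4 null libraries 3 lay within the wild-type range and replicate 3 lay above it. The difference was 0.11 (95% interval -0.12 to 0.34, limma adjusted p = 0.47), and it turned to -0.06 when the libraries were quantile-normalised. Adamts1 varied little between libraries of a genotype: its pooled SD was 0.11 on the log2 scale, and 7.42% of 1428 genes of like level had a smaller one. Its profile over the 8 libraries was closest to those of Ulk3, Ddt and Klhl9. The root mean square difference of the centred log2 values was 0.041, 0.057 and 0.058, among 9667 genes compared.

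Adamts4, an aggrecanase induced by cytokines in cartilage, had the smallest limma p of the 7 tested members. Its wild-type libraries had 1.87, 4.09, 4.43 and 3.06 TPM. The Mir140-null libraries had 4.99, 4.06, 5.95 and 4.41 TPM. All 4 null libraries lay above the wild-type median, and 2 of them above the wild-type maximum. The means were 3.37 ± 1.15 and 4.85 ± 0.83 TPM (SD, n = 4 each), and the difference was 0.46 (95% interval -0.05 to 0.96). That missed the threshold with limma (adjusted p = 0.188) and in the exact permutation test (p = 0.143). Wild-type replicate 1 was the lowest, and without it the difference was 0.27.

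Adamts5, the main aggrecanase of mouse cartilage and the member described as a miR-140 target, split the null group. It had 0.99, 1.92, 1.41 and 1.58 TPM in wild-type replicates 1 to 4. The Mir140-null libraries had 0.79, 1.24, 5.34 and 3.86 TPM. Replicates 3 and 4 lay above every wild-type library, replicate 1 lay below every one, and replicate 2 lay inside the wild-type range. The means were 1.47 ± 0.39 and 2.81 ± 2.16 TPM, a ratio of 1.90. On the log2 scale the difference was 0.44 (95% interval -0.47 to 1.36, limma adjusted p = 0.463). At this low level a pseudocount of 1 makes the log2 difference smaller than the log2 of the TPM ratio. With the same model and 1 factor of unwanted variation the limma adjusted p was 0.05002, where 26.1% of tested genes passed. The factor was drawn from the residuals of this model in the same libraries. By its making it lowers the residual spread and leaves the difference at 0.44, so it is no separate support. Its values were 0.56 and 0.41 for null replicates 1 and 2, and -0.54 and -0.43 for null replicates 3 and 4.

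The direction for Adamts5 rested on which null libraries were kept. Without Mir140-null replicates 1 and 2, the 2 libraries with the fewest genes at 0.5 TPM, the difference was 1.18 and passed (limma adjusted p = 0.0443). Adamts5 was then the 1 member called, where 3.3% of tested genes were. Without Mir140-null replicates 3 and 4 it was -0.29 (adjusted p = 0.311), where no member and 23.9% of tested genes were called. Both of these choices were made after the values were seen. Its pooled SD of 0.64 exceeded that of 88.7% of 3532 genes of like level.

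Adamts9, a widely expressed versican-cutting member, had 1.56, 1.96, 4.12 and 2.18 TPM in wild-type libraries. Mir140-null libraries had 2.39, 2.17, 3.41 and 2.81 TPM. Every null value lay inside the wild-type range, which wild-type replicate 3 widened. The difference was 0.14 (95% interval -0.39 to 0.66, limma adjusted p = 0.704). Leaving out 1 library moved it from 0.011, without wild-type replicate 1, to 0.34, without wild-type replicate 3. Adamts15, an aggrecanase little expressed here, was listed at 0.057, 0.19, 0.65 and 0.49 TPM with Mir140 intact and 0.044, 0.047, 0.57 and 0.40 TPM in its absence. As with Adamts5, the 2 low null libraries were replicates 1 and 2. Its exact permutation p was 0.60 (two-sided, n = 4 each), in a design whose smallest p is 0.0286.

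Adamts3 had 23.7, 26.8, 21.3 and 24.4 TPM in wild-type libraries. Mir140-null libraries had 14.5, 19.5, 20.9 and 24.8 TPM. Of the 4 null libraries 3 lay below every wild-type one, and replicate 4 was inside the range. The means were 24.0 ± 2.27 and 19.9 ± 4.27 TPM (SD, n = 4 each). The difference was -0.28 (95% interval -0.66 to 0.10, limma adjusted p = 0.268), and its sign was negative in all 19 alternative settings. Its size depended on 1 library, at -0.14 without Mir140-null replicate 1. It was -0.071 without Mir140-null replicates 1 and 2 and -0.49 without replicates 3 and 4.

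Adamts2, the N-proteinase whose loss in humans gives a fragile-skin disorder, was the most uneven member. Wild-type libraries had 19.8, 2.43, 26.8 and 6.13 TPM. The Mir140-null libraries had 0.41, 4.81, 15.9 and 17.7 TPM. Replicates 1 and 3 were high among wild-type libraries, replicates 3 and 4 among null libraries, and null replicate 1 was the lowest of all. The 95% interval of the difference ran from -2.81 to 1.58 around -0.61 (limma adjusted p = 0.684). Without Mir140-null replicate 1 the difference changed sign, to 0.17, and without Mir140-null replicates 1 and 2 it was 0.70 (adjusted p = 0.657). Its pooled SD of 1.58 exceeded that of 94.7% of 2907 genes of like level. The annotation gives 4 Adamts2 transcripts of 212 to 7266 bases, and the deposited values are per gene, so the share of each is not known.

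Adamts14, the third N-proteinase, was low and even. It had 0.72, 0.96, 1.01 and 0.80 TPM with Mir140 intact and 0.76, 0.85, 1.03 and 0.93 TPM in its absence. The groups lay over each other, with a difference of 0.02 (95% interval -0.22 to 0.25, limma adjusted p = 0.923). Only 3% of 4294 genes of like level had a smaller pooled SD.

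Mir140-null replicates 1 and 2 were the lowest of the null libraries for 6 of the 8 members, the exceptions being Adamts1 and Adamts4. The share of all tested genes with this order was not counted, so it cannot be called particular to the members. For Adamts3 and Adamts15 they were the lowest of all 8 libraries. Fibroblast and perichondrial markers also set these 2 libraries apart. The 7 markers summed to 6009, 3537, 6417 and 3762 TPM in wild-type replicates 1 to 4. In Mir140-null replicates 1 to 4 they summed to 883, 1059, 5632 and 4262 TPM. Mir140-null replicates 1 and 2 thus lay below every other library. Col1a1, the type I collagen chain of fibrous tissue, had 1544, 793, 1483 and 856 TPM with Mir140 intact and 47.8, 50.1, 1326 and 898 TPM in its absence. Among wild-type libraries, replicates 1 and 3 were the highest for Col1a1 and for Adamts2 alike. For Adamts5 they were the lowest wild-type libraries, at 0.99 and 1.41 TPM, and for Adamts17 replicate 3 was the lowest, at 9.42 TPM. Adamts2 was also higher in Mir140-null replicate 2 (4.81 TPM) than in wild-type replicate 2 (2.43 TPM), whereas Col1a1 was lower. None of the 7 markers was at 0 in all libraries. Pdgfra differed from the other 6 and rose, from 16.5 ± 3.38 to 34.2 ± 2.06 TPM (difference 1.03, limma adjusted p = 0.00846). Dcn, a small matrix proteoglycan, fell from 481.7 ± 24.7 to 350.0 ± 55.8 TPM (difference -0.47, adjusted p = 0.0351).

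The 5 smooth muscle and pericyte markers summed to 59.4 to 74.0 TPM across wild-type libraries, to 12.9 and 11.7 TPM for null replicates 1 and 2, and to 52.8 and 34.8 TPM for null replicates 3 and 4. Of these Acta2 and Cnn1, which encode contractile proteins, fell, with differences of -1.92 and -2.09 (limma adjusted p = 0.0166 and 0.00839). The 6 endothelial markers summed to 14.8 to 35.1 TPM across wild-type libraries, to 12.6 and 11.6 TPM for null replicates 1 and 2, and to 48.8 and 19.6 TPM for null replicates 3 and 4. The part of these cells in the values of the members was not tested. In bulk RNA, fewer cells of a type and less RNA per cell cannot be told apart.

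**Figure D3:**
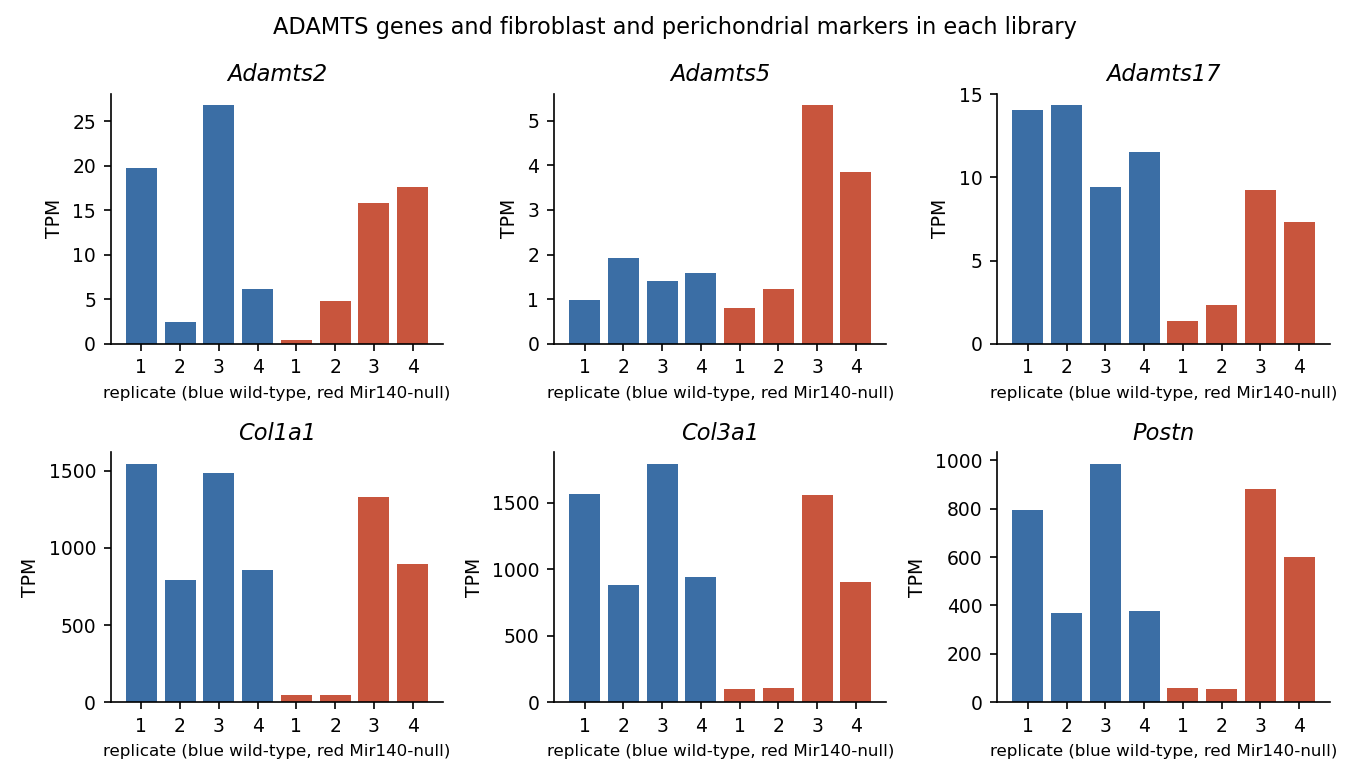
TPM of Adamts2, Adamts5 and Adamts17 and of the fibroblast and perichondrial markers Col1a1, Col3a1 and Postn in each library (bars from 0, wild-type blue, Mir140-null red, replicates 1 to 4). Col1a1 reads 47.8 and 50.1 TPM for the first 2 null replicates and 793 TPM or more in every other library.

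Of 11 other ADAMTS genes 6 could be tested, and 0 passed (limma adjusted p; 16.9% of tested genes did). At an unadjusted p under 0.05 were 2 of 6, against 33.9% of tested genes, and the median difference was -0.33. With 1 factor of unwanted variation 3 of 6 were called lower, where 2016 of 17177 tested genes were called lower. The same count, 3, was called lower without Mir140-null replicates 3 and 4, where 2212 of 17177 tested genes were. Without Mir140-null replicate 3 alone 1 was called lower, where 1214 of 17177 tested genes were. Adamts17, a member mutated in a short-stature syndrome and singled out here after its values were seen, had 14.0, 14.3, 9.42 and 11.5 TPM with Mir140 intact and 1.37, 2.35, 9.23 and 7.34 TPM in its absence. All 4 null libraries lay below all 4 wild-type ones. Its difference was -1.37 (limma adjusted p = 0.0743). It was -2.22 without Mir140-null replicates 3 and 4 (adjusted p = 0.00534) and -0.51 without replicates 1 and 2 (adjusted p = 0.192).

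Of the 7 ADAMTS-like genes, which lack the proteinase domain, 5 could be tested and 1 passed, where 16.9% of tested genes did. Adamtsl4, which binds fibrillin microfibrils, had 35.5, 31.3, 29.3 and 30.9 TPM in wild-type libraries. Mir140-null libraries had 75.8, 73.5, 73.4 and 88.6 TPM. The groups did not overlap, and the null libraries were close to each other, with no split between replicates 1 and 2 and replicates 3 and 4. The means rose from 31.7 ± 2.66 to 77.8 ± 7.27 TPM (difference 1.27, SE 0.11, limma adjusted p = 0.00211). It stayed past the threshold in all 19 alternative settings, at adjusted p from 0.00114 to 0.0398. The other 4 were negative, and none of them passed. With 1 factor of unwanted variation Adamtsl1 was called lower (limma adjusted p = 0.0167), as 2016 of 17177 tested genes were. Without Mir140-null replicates 3 and 4 Adamtsl1 and Thsd4 were called lower (adjusted p = 0.00962 and 0.0197), as 2212 tested genes were. Without Mir140-null replicates 1 and 2 Thsd4 and Adamtsl5 turned positive, at 0.06 and 0.35.

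Aggrecan, the main substrate of the aggrecanases, was higher in the null cells. Acan had 447, 681, 491 and 590 TPM with Mir140 intact and 1085, 996, 876 and 1083 TPM in its absence. The lowest null library exceeded the highest wild-type one. The difference was 0.88 (SE 0.15, limma adjusted p = 0.0107), and Acan was the 1 gene to pass of 3 tested from the 4 proteoglycan substrates, where 10.5% of tested genes were called higher. Without Mir140-null replicates 1 and 2 it was 0.84 (adjusted p = 0.0741).

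The 8 fibrillar procollagens, substrates of the N-proteinases, all had negative differences, with a median of -0.63. The median was -0.40 without Mir140-null replicate 1, and -0.047 with 3 of 8 positive without replicates 1 and 2. Without Mir140-null replicates 3 and 4 it was -1.32 and 5 were called lower, as 5 were with 1 factor of unwanted variation. Of 17177 tested genes, 2212 and 2016 were called lower in these settings. Of the 8, 1 passed, where 6.4% of tested genes were called lower. Col11a1, a chain of the type XI collagen in cartilage fibrils, fell from 3110 ± 177 to 2231 ± 414 TPM (difference -0.50, limma adjusted p = 0.0469). It lost the call in 13 of 19 alternative settings, at adjusted p up to 0.116, among them leaving out any 1 library but Mir140-null replicate 4. Col2a1, the type II chain and named here after its values were seen, had 57785 ± 6626 TPM with Mir140 intact and 41414 ± 7681 TPM in its absence (adjusted p = 0.07). Mir140-null replicates 1 and 2 were the lowest of all libraries for Col1a1, Col1a2, Col3a1, Col5a1 and Col5a2.

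Of 13 inhibitors, activators and receptors of these proteinases, 2 passed and both rose, where 10.5% of tested genes were called higher. Timp1, an inhibitor of metalloproteinases that acts weakly on aggrecanases, had 173, 323, 254 and 259 TPM with Mir140 intact and 786, 609, 414 and 519 TPM in its absence. Its difference was 1.198 (SE 0.24, limma adjusted p = 0.0171). Pcsk6, a proprotein convertase that activates aggrecanase precursors, rose from 31.0 ± 4.88 to 56.2 ± 8.93 TPM (difference 0.84, adjusted p = 0.0136). Timp3, the strongest aggrecanase inhibitor of its family and named after its values were seen, had 124 ± 27.5 TPM with Mir140 intact and 194 ± 64.3 TPM in its absence (adjusted p = 0.141).

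A list of 5 genes held procollagen C-proteinases, which remove the other propeptide, and enhancers of them. Of these genes 4 could be tested and 2 passed, both upward, again beside 10.5% of tested genes called higher. Tll1, a proteinase of the Bmp1 group, had 1.48, 1.72, 1.31 and 2.23 TPM with Mir140 intact and 6.75, 3.99, 3.27 and 3.28 TPM in its absence (difference 0.95, limma adjusted p = 0.0252). It lost the call in 7 of 18 alternative settings, among them leaving out wild-type replicate 1, 2 or 3 or Mir140-null replicate 2. Pcolce2, an enhancer of C-proteinase activity, rose from 45.1 ± 4.30 to 77.4 ± 13.5 TPM (difference 0.75, adjusted p = 0.0137). The other tested genes, Bmp1 and the enhancer Pcolce, were named after their values were seen. Both had negative differences and did not pass. Pcolce had 80.1 ± 19.1 TPM with Mir140 intact and 45.4 ± 38.7 TPM in its absence (limma adjusted p = 0.197), with 12.8 and 14.3 TPM in Mir140-null replicates 1 and 2. Without Mir140-null replicates 1 and 2, with 6 libraries left, Timp1, Pcsk6, Tll1 and Pcolce2 kept their sign, at limma adjusted p from 0.052 to 0.0993.

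**Figure D4:**
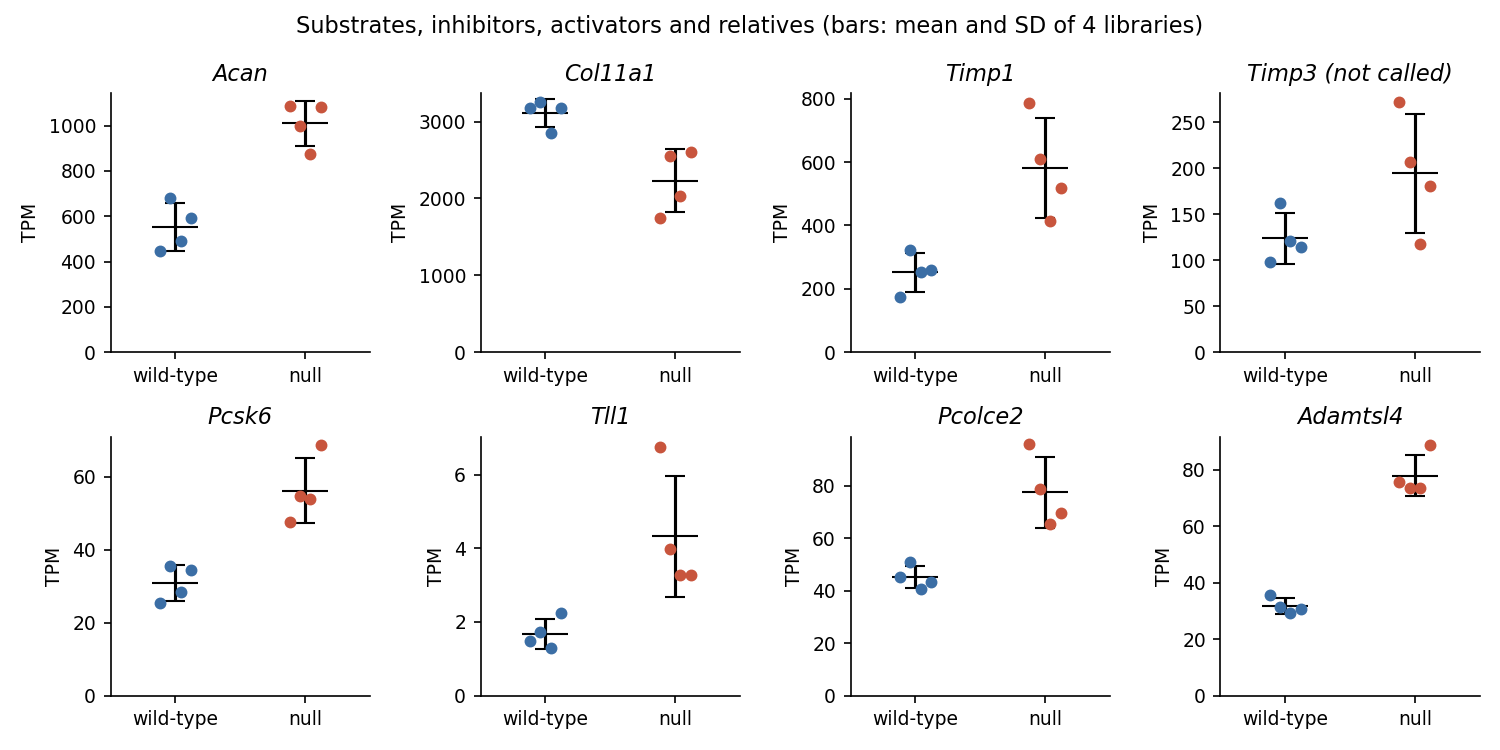
TPM in each library (points) with mean and SD of 4 libraries (bars) for the substrates, inhibitors, activators and relatives that passed, and for Timp3, which did not. The 2 genotypes do not overlap for Acan, Col11a1, Timp1, Pcsk6, Tll1, Pcolce2 and Adamtsl4.

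The genes differ in place as well as in level. Adamts1 (chr16:85793827-85803113) and Adamts5 (chr16:85856173-85901828) lie on the minus strand of chromosome 16, 53059 bases apart with 1 gene between them (GENCODE M21, mm10). From highest to lowest library Adamts1 ranged 1.28-fold and Adamts5 6.72-fold. Adamts2 spans chr11:50602084-50807573, Adamts3 chr5:89677087-89883334 and Adamts14 chr10:61197112-61273438. Adamts4 lies at chr1:171250421-171260637, Adamts9 at chr6:92772699-92943492 and Adamts15 at chr9:30899155-30922452.

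**Figure D5:**
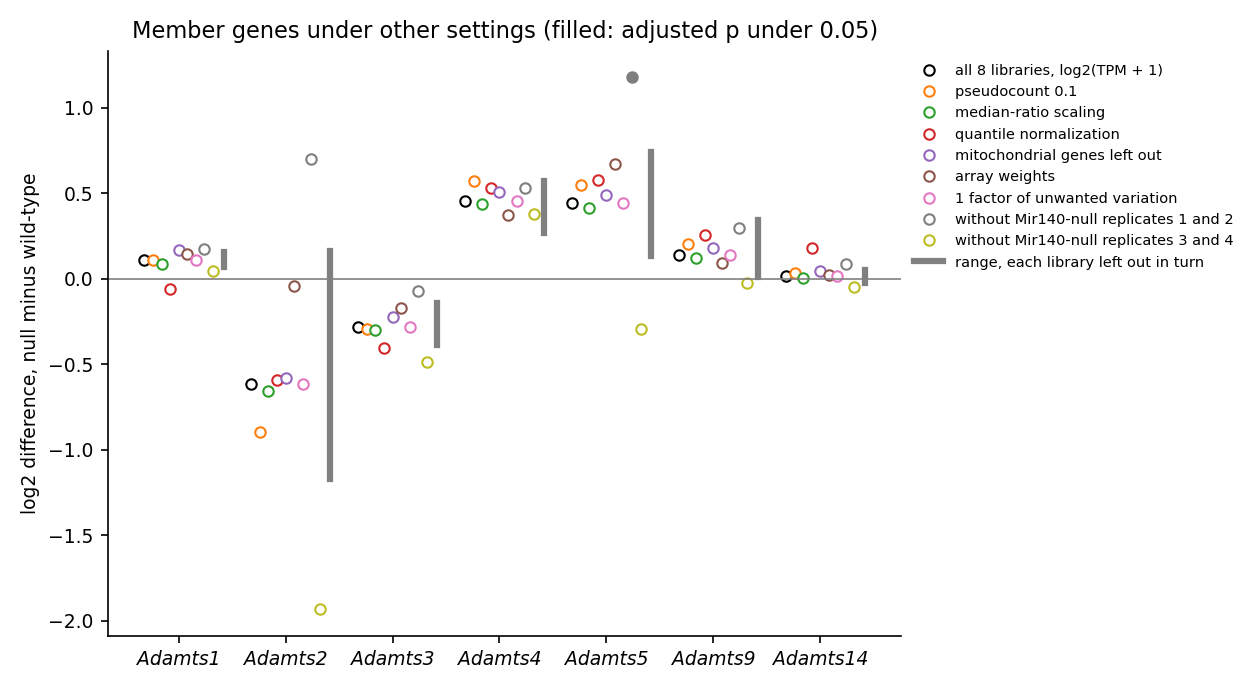
Difference between genotypes (Mir140-null minus wild-type, log2 scale) of the 7 tested members under each alternative setting, with grey bars for the range when each library is left out in turn. The filled point is Adamts5 without Mir140-null replicates 1 and 2 (1.18), and Adamts2 has the widest range.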

How the data were processed

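Costal chondrocyte RNA from 4 wild-type and 4 Mir140-null libraries was quantified by the authors with Salmon against the mm10 transcriptome, and the deposited values are TPM per gene, with 1 file per library. FastQC 0.11.7 and DESeq2 are also named in the submitters' processing notes, and the study's methods add a correction for batch effects. Each file held 52865 lines and 52325 gene identifiers; repeated identifiers carried identical values and were counted once. Symbols and coordinates came from GENCODE M21, in which 99.8% of identifiers were found.

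Because TPM are not counts, limma 3.58.1 (R 4.3.3) was fitted to log2(TPM + 1) with genotype as the term and a mean-variance trend, two-sided, for the 17177 genes that reached 0.5 TPM in 4 or more of the 8 libraries. P-values were Benjamini-Hochberg adjusted over these genes, at a threshold of 0.05. Single genes were also compared by an exact permutation test over 70 assignments of the libraries. The script was tested on simulated data. Members and gene lists were chosen with earlier results of these data known. All 8 members are named; of each list outside the cell type markers, genes that passed are named, up to 4 in each direction, and others only where said. Neighbours of the highest member were genes at a mean of 5 TPM or more. Genes of like level lay within 0.5 of the member's mean log2(TPM + 1). Alternatives were pseudocount 0.1, no filter, a mean of 5 TPM, median-ratio and quantile scaling, mitochondrial genes left out, a replicate block, 1 factor of unwanted variation, array weights and leaving out libraries. The factor of unwanted variation was the main direction of the residuals left by the genotype model in these 8 libraries, so it changes no difference. miR-140 sequences are from RefSeq (GRCm38.p6), UTRs from GENCODE M21.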

Additional observations from a re-analysis of the deposited data

How the results depend on the processing

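The count of members called was 0 in all settings but 1: without Mir140-null replicates 1 and 2 it was 1 (Adamts5). When each library was left out in turn it ranged from 0 to 0. The Adamts5 difference of 0.44 became 1.18 without Mir140-null replicates 1 and 2 and -0.29 without replicates 3 and 4, and ranged from 0.14 to 0.74 on leaving out each library. Adamts1 turned to -0.057 under quantile normalization. Adamts2 turned to 0.17 without Mir140-null replicate 1 and to 0.70 without Mir140-null replicates 1 and 2, with a leave-one-out range of -1.17 to 0.17. Adamts9 turned to -0.023 without Mir140-null replicates 3 and 4. Adamts14 turned to -0.0496 there, with a leave-one-out range of -0.0218 to 0.052. Adamts3 and Adamts4 kept their sign in every setting that gave a value. None of these reversed values passed. A filter at a mean of 5 TPM left no value for Adamts4, Adamts5, Adamts9 and Adamts14. Without a filter Adamts15 gave -0.09 (limma adjusted p = 0.805). The cause of these changes was not tested.

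Over all tested genes 1797 were called higher and 1100 lower, 62% of calls being higher. The counts of higher and lower calls were 977 and 539 with no filter, where 36617 genes were tested, and 671 and 454 with a replicate block. They were 357 and 210 without Mir140-null replicates 1 and 2. The count of lower calls was 605 at a mean of 5 TPM, 2016 with 1 factor of unwanted variation and 2212 without Mir140-null replicates 3 and 4, where 1889 were higher and the share of higher calls turned to 46.1%. Leaving out each library gave 779 to 1553 higher and 419 to 1214 lower calls, and moved 1 or both counts by over 1.5 times for each of them but Mir140-null replicates 3 and 4. With 1368 higher and 1320 lower calls, median-ratio scaling brought the share of higher calls to 50.9%. Replicate numbers are shared between genotypes, but no label says that they pair mice. Deviations of same-numbered libraries correlated between -0.01 and 0.07 and 2 of 8 libraries correlated best with their own number. With so few libraries these values cannot decide whether replicates were paired, so the block was kept as an alternative. With it, no member passed. TPM keep no depth, so counting error could not be separated from other spread, least of all for members near 1 TPM.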

Other observations

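Of 9 inflammation genes 8 could be tested between genotypes. Of these, 5 passed the limma test (adjusted p under 0.05), all higher, where 10.5% of tested genes were called higher. The list was chosen with earlier results of these data known, so this count describes it and is not a test. Nos2, which makes nitric oxide, had 4.53, 9.31, 3.48 and 7.63 TPM with Mir140 intact and 42.3, 29.3, 21.04 and 24.7 TPM in its absence (difference 2.10). Lcn2, an iron-binding protein induced by cytokines, differed by 1.504, the chemokine Ccl2 by 1.24 and the acute-phase protein Saa3 by 1.02. The count fell to 2 on leaving out wild-type replicate 3, wild-type replicate 4 or Mir140-null replicate 2, and to 3 on leaving out wild-type replicate 1 or Mir140-null replicate 1 or 4. The fifth gene, the prostaglandin synthase Ptgs2, lost its call in 10 of 19 alternative settings. Saa3 lost the call in 15 of 18 alternative settings, and Lcn2 in 4 of 19, among them leaving out wild-type replicate 3 or 4 or Mir140-null replicate 2. Without Mir140-null replicates 1 and 2 only Ccl2 passed (adjusted p = 0.0143).

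Of 12 immediate-early and stress genes known to respond to tissue dissociation 8 passed, all lower, where 6.4% of tested genes were called lower. This list too was chosen with earlier results known. The median difference over the list was -1.28. With a replicate block 3 were called lower, where 454 of 17177 tested genes were. Ier3, Hspa1a and Hspa1b were named after their values were seen. Ier3 went the other way, with 347 to 454 TPM in wild-type and 459 to 1548 TPM in null libraries (difference 1.10, limma adjusted p = 0.0833). Hspa1a and Hspa1b differed by -0.068 and 0.070. Fos, a transcription factor subunit, had 2761, 951, 1418 and 1541 TPM with Mir140 intact and 254, 305, 571 and 311 TPM in its absence (difference -2.17). Jun differed by -1.72, Fosb by -1.68 and Atf3 by -1.68. Without Mir140-null replicates 1 and 2, Fosb and Egr1 passed. Adamts1 was not called in any setting, and Adamts4 in none that gave it a value. A missed threshold does not show equal levels. Whether the changes in these lists bear on the members was not tested.

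Among the remaining cell types, the summed markers of osteoblasts were 10.02 to 17.2 TPM in wild-type and 3.07 to 14.2 TPM in Mir140-null libraries. Those of skeletal muscle were 64.1 to 98.9 and 34.6 to 58.3 TPM, of macrophages 21.8 to 39.6 and 16.8 to 30.9 TPM, and of neutrophils 1.62 to 5.90 and 6.80 to 10.3 TPM. Hypertrophic chondrocyte markers summed to 139.6 to 320.4 TPM in wild-type and 157.5 to 264.7 TPM in Mir140-null libraries, erythroid markers to 646 to 1854 and 256 to 1725 TPM, and adipocyte markers to 27.9 to 66.5 and 27.6 to 76.1 TPM.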
